A study of Solanum lycopersicum with 8 samples.

Results

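The SOC1-like and SVP-like MADS-box genes of tomato were examined in proliferating inflorescence meristems of 2 double mutants. They were taken by gene ID as 8 genes, 4 SOC1-like (*STM3*, Solyc01g092950; *TM3*, Solyc01g093965; Solyc12g056460; Solyc03g006830) and 4 SVP-like (*JOINTLESS*, Solyc11g010570; Solyc01g105800; Solyc04g076280; Solyc04g076700). Of these, 7 had a row among the 34109 genes of the deposited table, and Solyc04g076700 had none, so it was not analysed here. The filter on low values, a mean of at least 1 TPM over the 8 libraries, left 6 of them among 19544 genes tested, and Solyc04g076280 lay below it. The names *STM3*, *TM3* and *JOINTLESS* and the clade of each ID come from general knowledge of tomato genes, because no table used here gives names for them. The only check was that the reference gene table (RefSeq) lists *JOINTLESS* on chromosome 11, as its ID does.

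MADS-box proteins bind DNA as dimers and form larger complexes, and the make-up of these complexes changes as a meristem matures. In *Arabidopsis*, SOC1 gathers signals that promote flowering and helps to activate floral identity genes, whereas SVP represses flowering in the vegetative phase and acts with its relatives in young floral meristems to hold back floral organ programmes. In tomato, *JOINTLESS* is needed for the abscission zone of the flower stalk and keeps the inflorescence from returning to vegetative growth. Loss of *STM3* and *TM3* suppresses the branching of plants with reduced *J2* and *EJ2* function.

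Both genotypes were sampled at 8 weeks of age, with 4 libraries each from dissected inflorescence meristems. *ej2* *j2* carries mutations in a pair of *SEP* paralogues (*EJ2* and *J2*) and *plt3* *plt7* carries CRISPR–Cas9 mutations in a pair of *PLETHORA* paralogues (*PLT3* and *PLT7*). Both overproliferate meristems, so the comparison is between 2 mutants, and no WT library was analysed here. The methods of the study give 4 plants, without saying whether this is per genotype. Neither they nor the labels name the plant of each library, so p-values measure the spread between these samples. Levels are in TPM, a read number scaled for transcript length and for the library total, which can be compared between genes. Each library sums to 1000000, no read numbers are kept, and the depth is unknown. Between 21397 and 22792 genes were above 0 in each library. *EJ2* remained at 3.67 to 15.2 TPM in *ej2* *j2*, and *PLT3* and *PLT7* at 1.75 to 22.5 and 23.3 to 73.7 TPM in *plt3* *plt7*, so these levels do not check the genotypes. Of 4 meristem marker IDs, 3 were above 1 TPM in every library. In whole tissue, fewer cells of a type and less RNA per cell cannot be told apart.

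*STM3* and *TM3* had higher mean levels in *ej2* *j2* meristems, Solyc03g006830 and Solyc01g105800 had higher mean levels in *plt3* *plt7* meristems, and *JOINTLESS* varied more among libraries of a genotype than between the genotypes. Over all genes tested, 0.875% were higher and 0.962% lower in *plt3* *plt7* (limma on log2(TPM + 1), adjusted p under 0.05). Of the 6 genes tested here, 1 passed as higher, Solyc01g105800, and 0 passed as lower. That gene cleared the filter on low values only through *plt3* *plt7*, and the count was 0 without the filter. At an unadjusted p under 0.05 there was 1 of the 6, beside 13.8% of all genes tested. Libraries of the genotypes did not overlap for 1 gene that was lower in *plt3* *plt7*, *TM3*, where 3.00% of all genes tested did so, and for 1 that was higher, Solyc01g105800, where 3.87% did so. Differences were below 0 for 3 genes and above 0 for 3, with a median of 0.02 on the log2 scale beside 0.05 over all genes tested. Each difference is that of *plt3* *plt7* from *ej2* *j2* in log2(TPM + 1), negative where *plt3* *plt7* was lower. On this scale the change of a gene with a low level is understated. The tests are two-sided.

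**Figure D1:**
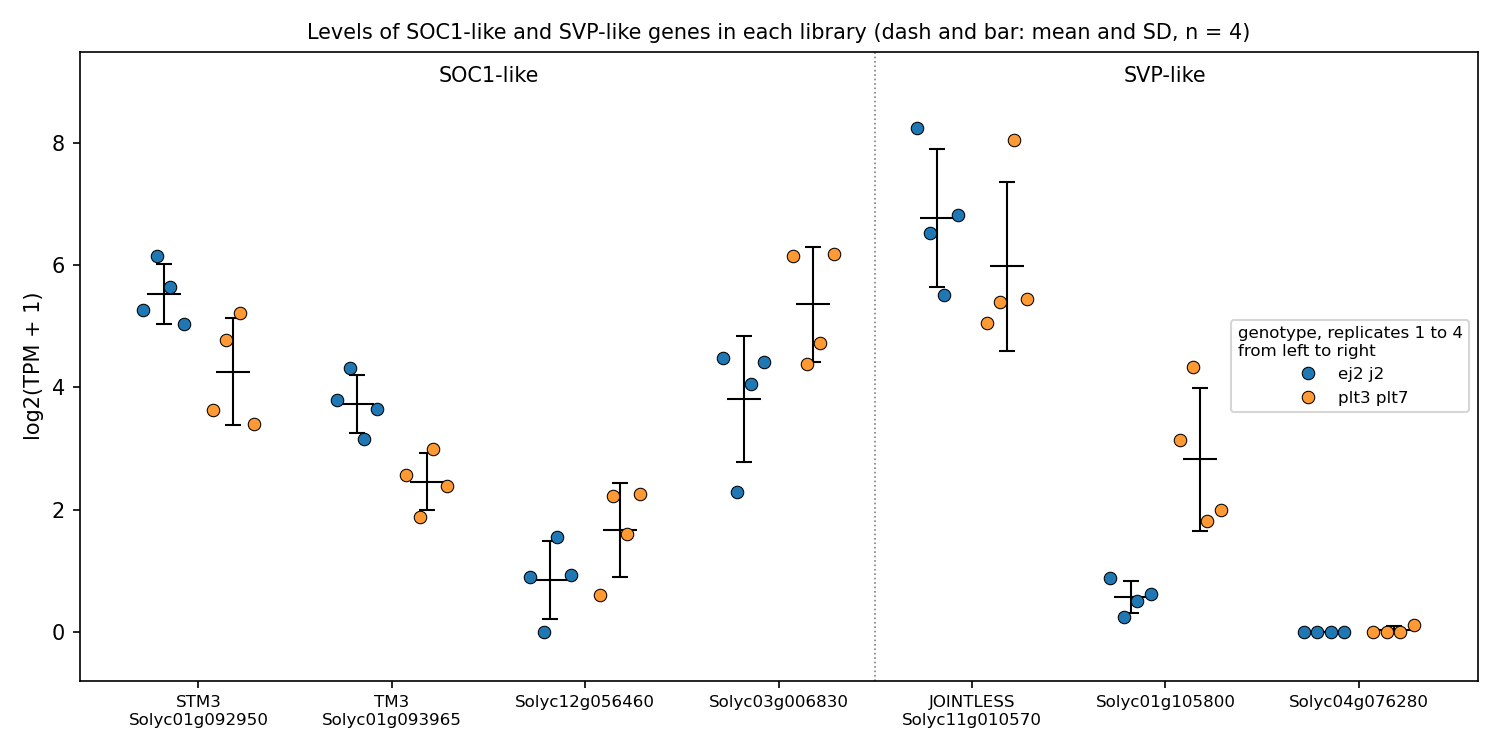
Level of each gene with a row, as log2(TPM + 1), in the 4 *ej2* *j2* (blue) and 4 *plt3* *plt7* (orange) libraries, with the mean and SD of each genotype (n = 4). The groups are apart for *TM3* and Solyc01g105800, *JOINTLESS* has a single high point in *plt3* *plt7* (263.6 TPM), and Solyc04g076280 lies at or near 0 throughout.

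Among the SOC1-like genes, *STM3*, which promotes inflorescence branching, was measured at 37.5, 70.4, 49.0 and 31.8 TPM in *ej2* *j2* replicates 1 to 4 (mean 47.2 ± 17.1, SD, n = 4). The *plt3* *plt7* values were 11.4, 26.3, 36.2 and 9.54 TPM (mean 20.9 ± 12.7, SD, n = 4). The groups overlapped through *plt3* *plt7* replicate 3 alone, which lay above *ej2* *j2* replicate 4, and the mean was 2.26 times higher in *ej2* *j2*. The log2 difference was -1.27 (standard error 0.90, 95% interval -3.03 to 0.49), which did not pass the test (adjusted p = 0.575, limma; exact permutation test, p = 0.0571).

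*TM3*, the close relative of *STM3*, had *ej2* *j2* values of 12.8, 18.9, 7.89 and 11.5 TPM (mean 12.8 ± 4.58, SD, n = 4) and *plt3* *plt7* values of 4.93, 2.68, 6.99 and 4.20 TPM (mean 4.70 ± 1.79, SD, n = 4). Every *plt3* *plt7* library lay below every *ej2* *j2* library, by a narrow margin, since the lowest *ej2* *j2* value was 1.13 times the highest *plt3* *plt7* value. The mean was 2.72 times higher in *ej2* *j2*, and the log2 difference was -1.27 (standard error 0.83, 95% interval -2.91 to 0.37). It did not pass across all genes (adjusted p = 0.534, limma). The exact permutation test gave p = 0.0286, the smallest that 4 libraries against 4 allow. The replicates of *TM3* were close to each other: its residual SD was 0.47 on the log2 scale, below that of all but 1.17% of 3501 genes with a mean log2 level within 0.5 of its own, whose median was 1.12. Its log2 difference was therefore larger than its own spread between replicates, which was so for every tested member but *JOINTLESS*. The standard error from limma rests almost wholly on the spread of other genes of like level. The residual SD of *STM3* was 0.71, and 6.66% of genes of like level had a smaller one.

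Solyc03g006830 showed the opposite order. The *ej2* *j2* libraries had 21.3, 3.87, 15.6 and 20.3 TPM (mean 15.2 ± 7.99, SD, n = 4) and the *plt3* *plt7* libraries 70.3, 19.9, 25.5 and 71.5 TPM (mean 46.8 ± 27.9, SD, n = 4). Replicates 1 and 4 of *plt3* *plt7* were far above all other libraries, whereas *plt3* *plt7* replicate 2 lay below *ej2* *j2* replicates 1 and 4. The mean was 3.07 times higher in *plt3* *plt7*. The log2 difference of 1.56 (standard error 0.90, 95% interval -0.20 to 3.32) did not pass the test (adjusted p = 0.448, limma; exact permutation test, p = 0.0857).

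Solyc12g056460 was the lowest of the SOC1-like genes. Its values were 0.870, 0, 1.92 and 0.892 TPM in *ej2* *j2* and 0.514, 3.69, 2.01 and 3.75 TPM in *plt3* *plt7*. The groups overlapped, and at such levels the log2 difference of 0.82 (standard error 0.60) depended on the pseudocount, with 1.65 at a pseudocount of 0.1. It was 0.54 without *ej2* *j2* replicate 2 and 0.25 with *plt3* *plt7* replicates 1 and 3 only. It passed at neither pseudocount (adjusted p = 0.597 and 0.551, limma; exact permutation test on the first scale, p = 0.171).

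**Figure D2:**
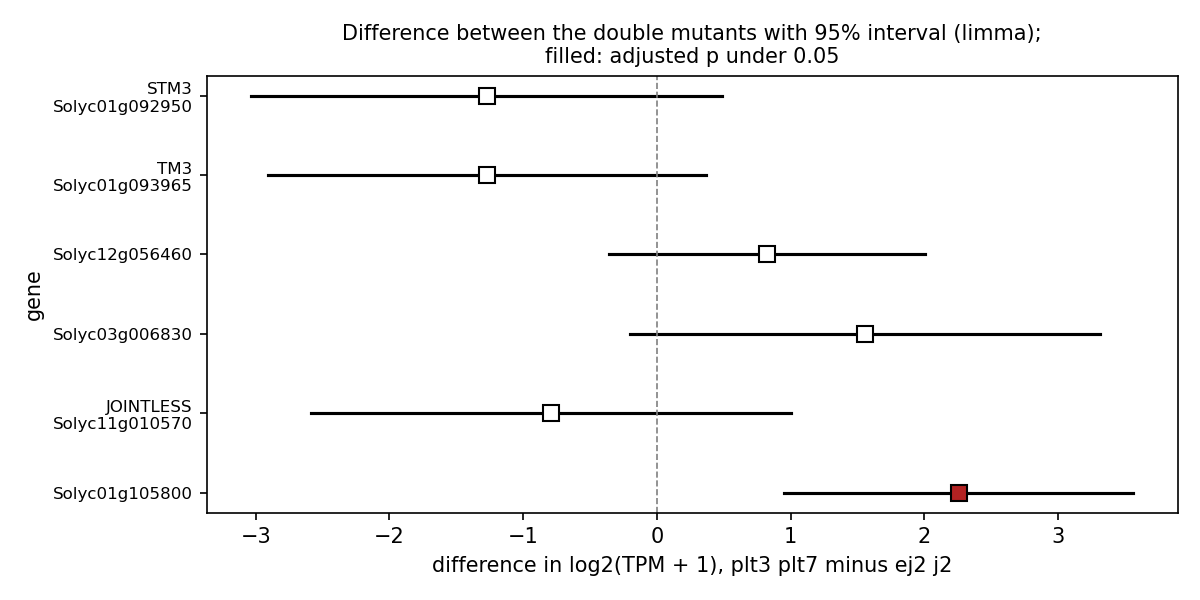
Difference between the genotypes in log2(TPM + 1), *plt3* *plt7* minus *ej2* *j2*, with its 95% interval from limma, for the 6 genes tested. The interval of Solyc01g105800 (0.95 to 3.56) is the one that does not reach 0, and the other 5 span it.

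The mean summed level of the 4 SOC1-like genes was close in the genotypes, while its make-up varied among libraries. Library by library, the *ej2* *j2* sums were 72.4, 93.2, 74.4 and 64.5 TPM (mean 76.1 ± 12.2, SD, n = 4) and the *plt3* *plt7* sums 87.2, 52.6, 70.8 and 89.0 TPM (mean 74.9 ± 17.0, SD, n = 4). *STM3* held 49.3% to 75.6% of the sum in *ej2* *j2* and 10.7% to 51.2% in *plt3* *plt7*. *TM3* held 10.6% to 20.3% and 4.72% to 9.88%, and Solyc03g006830 held 4.15% to 31.5% and 36.1% to 80.7%. The ranges of the *TM3* and Solyc03g006830 shares did not overlap between the genotypes, but their nearest values were close. No background was computed for such shares. The level of Solyc03g006830 itself overlapped, and its share is of a sum that includes *STM3*. These shares are a description of the same values and were not tested.

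**Figure D3:**
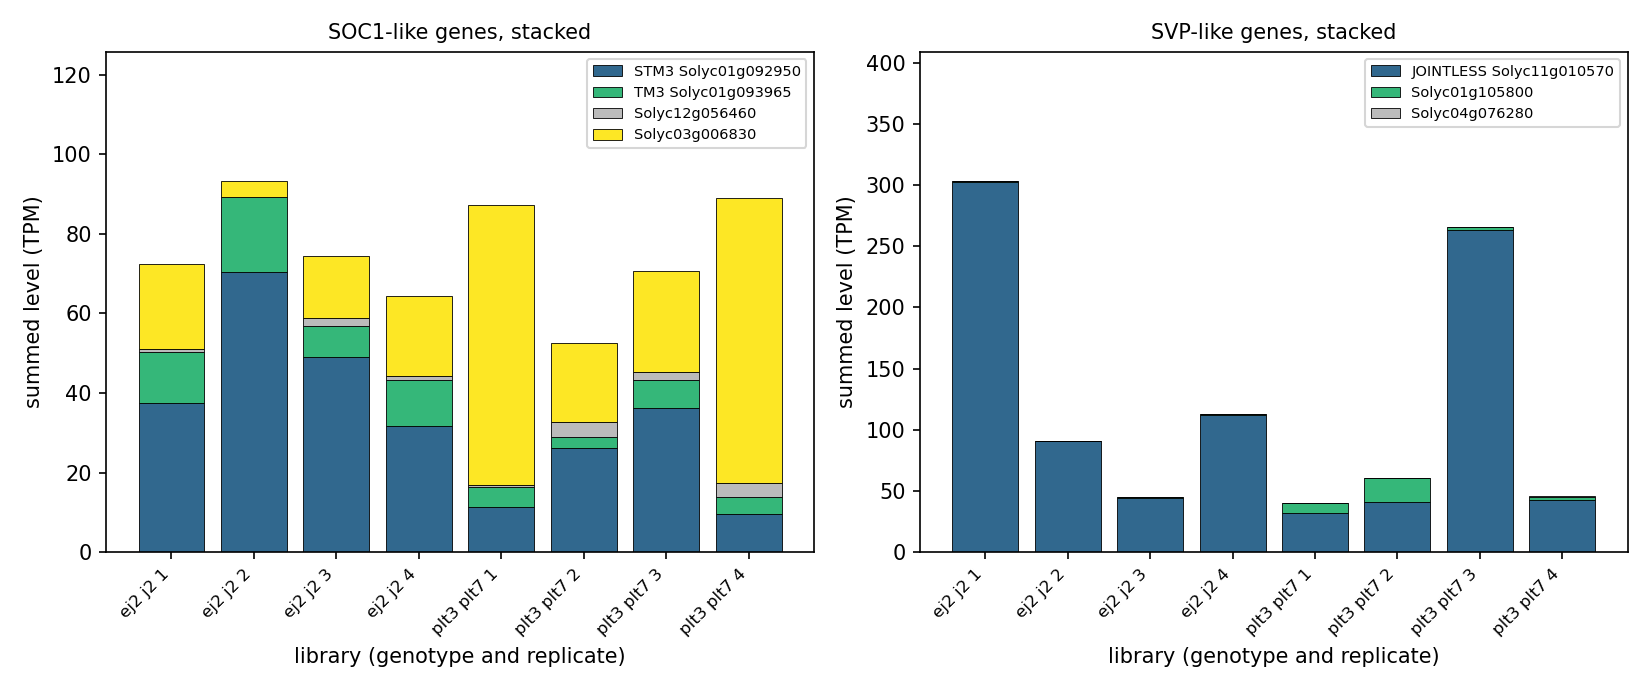
Stacked levels in TPM of the SOC1-like genes (left) and the SVP-like genes (right) in each library. The SOC1-like bars reach 52.6 to 93.2 TPM across both genotypes. Their *STM3* (dark blue) part is smallest and their Solyc03g006830 (yellow) part largest in *plt3* *plt7* replicates 1 and 4. The SVP-like bars are almost wholly *JOINTLESS* (dark blue) except in *plt3* *plt7* replicates 1, 2 and 4.

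*STM3* and Solyc03g006830 mirrored each other across most libraries. The *ej2* *j2* library with the highest *STM3* level (replicate 2, 70.4 TPM) had the lowest Solyc03g006830 level (3.87 TPM), and the *plt3* *plt7* library with the lowest *STM3* level (replicate 4, 9.54 TPM) had the highest Solyc03g006830 level (71.5 TPM). The ratio of *STM3* to Solyc03g006830 within a library was 1.76, 18.2, 3.15 and 1.57 in *ej2* *j2* and 0.162, 1.32, 1.42 and 0.133 in *plt3* *plt7*. Every *ej2* *j2* library thus had the higher ratio, though the nearest libraries were close. This ratio restates the opposite differences of both genes in the same values, so it is no further support, and it was not tested. The ratio of *STM3* to *TM3* did not separate the genotypes, at 2.76 to 6.21 in *ej2* *j2* and 2.27 to 9.80 in *plt3* *plt7*. *STM3* exceeded *TM3* in all 8 libraries. No source used here says how reads were divided between similar genes, so the split between *STM3* and *TM3* is uncertain. Their sum was 43.3 to 89.4 TPM in *ej2* *j2* and 13.7 to 43.2 TPM in *plt3* *plt7*.

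**Figure D4:**
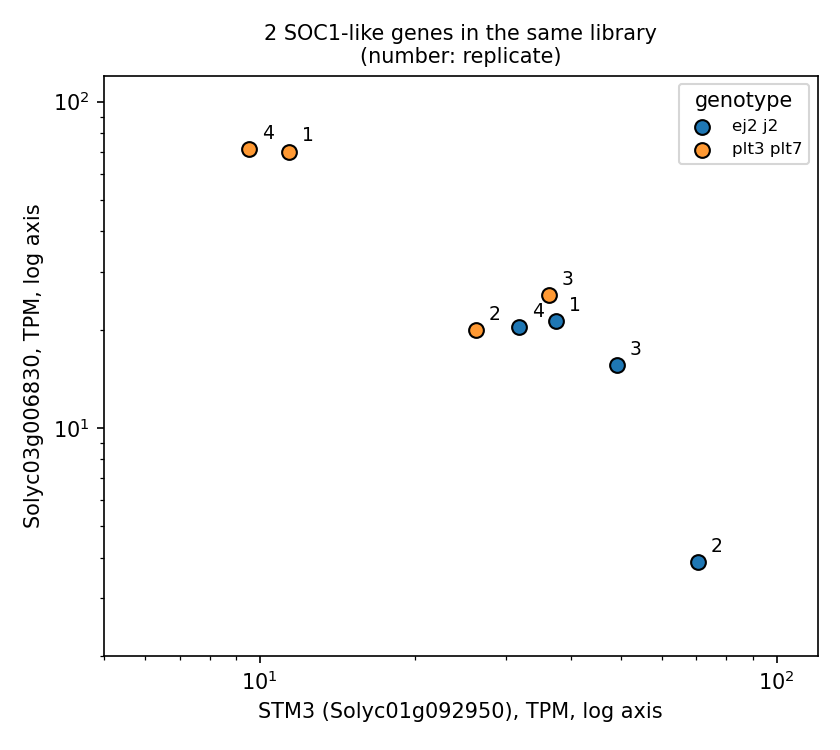
Level of *STM3* against that of Solyc03g006830 in the same library, both in TPM on log axes, with the replicate number beside each point (blue *ej2* *j2*, orange *plt3* *plt7*). The points run from *ej2* *j2* replicate 2 (70.4 and 3.87 TPM) to *plt3* *plt7* replicate 4 (9.54 and 71.5 TPM), and *plt3* *plt7* replicates 2 and 3 lie beside the *ej2* *j2* points.

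Among the SVP-like genes, *JOINTLESS* had the highest level. The *ej2* *j2* values were 302.3, 90.8, 44.6 and 112 TPM (mean 137 ± 113, SD, n = 4) and the *plt3* *plt7* values 32.2, 41.0, 263.6 and 42.5 TPM (mean 94.8 ± 113, SD, n = 4). A single library was high in each genotype, *ej2* *j2* replicate 1 and *plt3* *plt7* replicate 3, and the other 3 *plt3* *plt7* libraries lay below every *ej2* *j2* library. The groups overlapped through *plt3* *plt7* replicate 3 alone, and the medians were 101.5 TPM in *ej2* *j2* and 41.7 TPM in *plt3* *plt7*. The log2 difference of -0.79 (standard error 0.91, 95% interval -2.59 to 1.00) was smaller than the residual SD of 1.26 and did not pass the test (adjusted p = 0.787, limma; exact permutation test, p = 0.371). It was -1.48 without *plt3* *plt7* replicate 3 (adjusted p = 0.529, limma) and -0.30 without *ej2* *j2* replicate 1 (adjusted p = 0.952, limma). Equal levels are not shown, given the width of the interval.

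Solyc01g105800 was the gene that passed. It was under 1 TPM in every *ej2* *j2* library, so it entered the test only through the genotype in which it was high, and the call rests on that selection. Its *ej2* *j2* values were 0.836, 0.183, 0.422 and 0.528 TPM (mean 0.493 ± 0.271, SD, n = 4), against 7.79, 19.2, 2.52 and 2.97 TPM for the *plt3* *plt7* libraries (mean 8.12 ± 7.77, SD, n = 4). The lowest *plt3* *plt7* library was 3.01 times the highest *ej2* *j2* library, and the ratio of the means was 16.5, or 11.3 for the medians, both of which rest on low *ej2* *j2* values of unknown depth. It was higher in 4 of 4 *plt3* *plt7* libraries, and the log2 difference was 2.26, with a standard error of 0.66 (limma, adjusted p = 0.0442). The exact permutation test gave its smallest possible value, p = 0.0286. The call was close to the threshold: it was lost in 7 of the 8 fits that left out 1 library (adjusted p 0.0557 to 0.184, limma) and kept without *plt3* *plt7* replicate 3 (adjusted p = 0.0275, limma), with differences of 1.75 to 2.59 in these fits. It was also lost without the filter (adjusted p = 0.170, limma), without an intensity trend (0.172), with the replicate block (0.0553), with *plt3* *plt7* replicates 1 and 3 only (0.289) and with a pseudocount of 0.1 (0.0529), where the log2 difference was 3.45. The summed level of green tissue markers was 395 to 1132 TPM in *plt3* *plt7* and 129 to 493 TPM in *ej2* *j2*, ranges that overlapped. Solyc03g034220 and Solyc07g047850 carried most of this sum, whereas Solyc03g005780 was at 0.855 to 15.1 TPM in *ej2* *j2* and 0 to 0.486 TPM in *plt3* *plt7*, and the 3 other IDs above 0 had lower means in *plt3* *plt7*. None of the 3 tested members of that list passed, 4 of its 7 IDs had a mean under 1 TPM, 1 was listed at 0 in every library, and 2, that one included, were at 0 in every *plt3* *plt7* library. In *plt3* *plt7* replicate 2, where Solyc01g105800 was highest, this sum was the lowest of the genotype (395 TPM). The part of green tissue in the result was not tested.

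Solyc01g105800 made up 0.201% to 0.937% of the summed SVP-like level in *ej2* *j2* and 19.5%, 31.9%, 0.946% and 6.53% in *plt3* *plt7* replicates 1 to 4, *JOINTLESS* making up nearly all the rest. In *plt3* *plt7* replicate 3, high *JOINTLESS* and low Solyc01g105800 went together, and its share was nearly that of *ej2* *j2* replicate 3. Solyc04g076280 was listed at 0 in 7 libraries and at 0.0816 TPM in *plt3* *plt7* replicate 4, so no difference could be given.

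The order of the genes by median level differed between the genotypes. In *ej2* *j2* it ran from *JOINTLESS* (101.5 TPM) through *STM3* (43.3 TPM), Solyc03g006830 (17.9 TPM), *TM3* (12.2 TPM) and Solyc12g056460 (0.881 TPM) to Solyc01g105800 (0.475 TPM). The ranges of *STM3* and Solyc03g006830, and those of *TM3* and Solyc12g056460, did not overlap there, while the other neighbours did. In *plt3* *plt7* Solyc03g006830 came first (47.9 TPM), ahead of *JOINTLESS* (41.7 TPM), *STM3* (18.8 TPM), Solyc01g105800 (5.38 TPM), *TM3* (4.56 TPM) and Solyc12g056460 (2.85 TPM), and every pair of neighbours among these 6 overlapped. Solyc03g006830 exceeded *JOINTLESS* in only 2 of the 4 *plt3* *plt7* libraries, and Solyc01g105800 exceeded *TM3* in only 2 of 4.

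Other MADS-box genes of flower and inflorescence were counted in the same fit. Of 19 IDs in that list, 13 were tested, 5 were lower in *plt3* *plt7* and 0 higher, with a median log2 difference of -0.57 (limma, adjusted p under 0.05). The share called lower over all genes tested was 0.962%. The 5 include *EJ2* and *J2*, the genes mutated in *ej2* *j2*, so their *ej2* *j2* levels are those of mutated genes. All 5 had means under 1 TPM in *plt3* *plt7*, so they cleared the filter on low values only through *ej2* *j2*. Among them was Solyc01g093960, whose ID is near that of *TM3*: it was at 10.2 to 26.2 TPM in *ej2* *j2* and listed at 0 in every *plt3* *plt7* library (adjusted p = 8.97e-05, limma). Whether the models of this gene and *TM3* share sequence was not checked. Solyc02g089200 was at 9.43 to 40.8 TPM in *ej2* *j2* and 0.412 to 1.54 TPM in *plt3* *plt7*, a log2 difference of -3.88 (adjusted p = 0.00101, limma). *EJ2* (Solyc03g114840) was listed at 0 in every *plt3* *plt7* library as well (adjusted p = 6.09e-04, limma). *J2* (Solyc12g038510) was at 1.64 to 22.8 TPM in *ej2* *j2* and 0.236 to 0.565 TPM in *plt3* *plt7* (adjusted p = 0.0161, limma). Fitted differences against libraries at 0 depend on the pseudocount and are not given as folds. Of 6 IDs of floral transition and inflorescence identity genes outside the family, 4 were tested, all with differences below 0, and 1 passed, Solyc02g081670, which was at 0.125 to 8.76 TPM in *ej2* *j2* and listed at 0 in *plt3* *plt7* (adjusted p = 0.0242, limma). It cleared the filter only through *ej2* *j2*, and its call was lost without the filter (adjusted p = 0.164, limma), and in 6 of the 8 fits without 1 library (adjusted p 0.0515 to 0.0978, limma). Of the 5 MADS-box genes called lower, only Solyc01g093960 kept its call without the filter (adjusted p = 0.0370, limma). The others lost theirs (adjusted p 0.0609 to 0.169, limma), among them *EJ2* (0.0609) and Solyc02g089200 (0.0870). Among the tested floral transition and inflorescence identity genes, Solyc02g077390 had the most negative difference. It was at 58.9 to 96.3 TPM in *ej2* *j2* and 3.11 to 51.8 TPM in *plt3* *plt7*, and did not pass (log2 difference -2.96, adjusted p = 0.0552, limma). Of the 4 meristem marker IDs, 0 passed, with summed levels of 212 to 451 TPM in *ej2* *j2* and 223 to 764 TPM in *plt3* *plt7*. The members did not go one way: 2 had differences below 0 and the rest above 0. Those below 0 were Solyc02g083950 (4.19 to 269 TPM in *ej2* *j2*, 4.39 to 13.4 TPM in *plt3* *plt7*) and Solyc11g071380 (0.885 to 8.40 and 0 to 1.13 TPM). The sum was highest in *plt3* *plt7* replicate 3, the library with high *JOINTLESS*. The part of meristem content in that *JOINTLESS* value was not tested. The function of single members of these lists was not checked.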

How the data were processed

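RNA of inflorescence meristems from 8 libraries, 4 per genotype, was treated with a ribosomal RNA removal kit before library preparation. The deposited TPM values were computed by the authors after trimming with Trimmomatic and alignment with STAR 2.6.1 against annotated tomato cDNAs (SL4.0). For strand and for reads that match more than 1 gene, the setting is not given in the sources. TPM keeps no depth, so no counting error can be given, and 0 means listed at 0. Where the mean was 1 TPM or more, log2(TPM + 1) was compared by limma 3.58.1, run under R 4.3.3 (empirical Bayes with an intensity trend, Benjamini-Hochberg adjustment over all 19544 genes, threshold 0.05). The procedure was checked on simulated data. Members were also tested with an exact permutation test over the 70 assignments of 8 libraries. Python 3.11.15 was used for summaries (pandas 2.3.3, numpy 2.4.6) and plots (matplotlib 3.10.9).

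The members and gene lists were chosen with earlier results of these data known. Named were all 8 members, up to 3 genes of each list with the largest absolute log2 differences, and the 2 genes most like *STM3*, *TM3* and *JOINTLESS*. Alternatives were another pseudocount, other filters, scalings and variance models, a replicate block and fewer libraries. No sequences were used here.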

Additional observations from a re-analysis of the deposited data

Results flagged for a closer look

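The 263.6 TPM of *JOINTLESS* (Solyc11g010570) in *plt3* *plt7* replicate 3 stood apart from the range of the remaining *plt3* *plt7* libraries (32.2 to 42.5 TPM). Solyc04g076280 in *plt3* *plt7* replicate 4, at 0.0816 TPM, was above 0 in that library alone. Both stood out by Dixon's ratio of TPM values among 13 groups of 4 libraries. This ratio sets apart about 5% of groups by chance if values are normally distributed, which was not checked for TPM. With its other 3 libraries at 0, the ratio of Solyc04g076280 is at its highest by construction and is no test.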

How the results depend on the processing

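Directions of all 6 tested genes held under every alternative run. None of them was called lower under any of the 17 alternatives. The count called higher, 1 as reported, was 0 with a pseudocount of 0.1, without a filter on low values, with a minimum mean of 5 TPM (where Solyc01g105800 and Solyc12g056460 were not tested), without an intensity trend, with the replicate block and with *plt3* *plt7* replicates 1 and 3 only, and 0 to 1 when single libraries were left out. The adjusted p of Solyc01g105800 (limma) was 0.0529, 0.170, 0.172, 0.0553 and 0.289 in the settings that tested it, in that order, and ranged from 0.0275 to 0.289 over all of them. Its log2 difference was 2.26 with the replicate block. The same numbers did not mark paired libraries, since their deviations from the genotype means had correlations of -0.03 to 0.01. The log2 difference of *JOINTLESS* was -0.22 with *plt3* *plt7* replicates 1 and 3 only, the number of *plt3* *plt7* samples the study plotted. The study does not say which replicates it plotted, so this choice of pair is arbitrary. It holds replicate 3, the library with high *JOINTLESS*, without which the difference was -1.48. Over all genes tested, 188 were lower and 171 higher as reported. The counts were 7 and 4 without a filter, 66 and 65 without an intensity trend, 126 and 103 with a minimum mean of 5 TPM, 19 and 66 with *plt3* *plt7* replicates 1 and 3 only, 165 and 138 with the replicate block, and 59 to 288 lower and 65 to 175 higher when single libraries were left out. The causes of these changes were not tested. Unknown depth limits what can be said of Solyc12g056460, Solyc04g076280 and Solyc01g105800, the last of which had the lowest *ej2* *j2* median of the 6 tested genes.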

Other observations

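The genes whose pattern over the 8 libraries was most like that of *STM3*, by Pearson's r of log2(TPM + 1), were Solyc03g032020 (r = 0.97) and Solyc02g014870 (r = 0.96). For *TM3* they were Solyc03g123740 (r = 0.97), at 93.2 to 165 TPM in *ej2* *j2* and 26.3 to 88.7 TPM in *plt3* *plt7*, and Solyc01g005550 (r = 0.96), at 171 to 380 TPM and 43.1 to 132 TPM. For *JOINTLESS* they were Solyc09g091700 (r = 0.97) and Solyc04g082000 (r = 0.95), both of which were highest in *ej2* *j2* replicate 1 (3.34 and 4.50 TPM) and next highest in *plt3* *plt7* replicate 3 (1.85 and 3.19 TPM), the libraries with high *JOINTLESS*. These values describe 8 libraries of 2 genotypes, and among 19544 genes some patterns are alike by chance. The tables used here do not name these genes.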
